A study of Mus musculus with 16 samples.

Results

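The 50 genes described here run or mark the cell division cycle. They were taken by symbol: 15 genes of DNA replication and nucleotide supply, 23 genes of mitosis, 8 G1 cyclins and cyclin-dependent kinases (CDKs), and 4 CDK inhibitors, among the 20072 genes of the deposited table. RNA came from the small intestine of untreated mice of the genotype Tph1-CFP, aged 8 to 16 weeks, in which cyan fluorescent protein (CFP) marks enterochromaffin (EC) cells, the serotonin-making endocrine cells of the gut lining. Cells of the villus and of the crypt fraction were sorted by fluorescence and pooled at 5000 cells per library, which gave 4 libraries in each of 4 groups: villus EC (CFP-positive), villus epi (the other, CFP-negative epithelial cells), crypt EC (CFP-positive) and crypt epi (CFP-negative). All 4 groups carry the reporter, and no group without it was analysed here. The labels do not say which library number belongs to which mouse, so the p-values measure the spread between libraries.

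The crypt holds the stem cells and the rapidly dividing progenitors of the intestinal epithelium, and cells stop dividing as they move onto the villus. Division runs in steps: D-type cyclins with Cdk4 or Cdk6 open the way out of G1, cyclin E with Cdk2 starts DNA replication at origins loaded with the MCM helicase, and cyclin A and cyclin B with Cdk1 drive mitosis. CDK inhibitors such as p21, encoded by Cdkn1a, hold cells back. EC cells arise from crypt progenitors that pass through a stage marked by Neurog3, and endocrine cells are regarded as having left the cycle or dividing rarely.

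Levels are the deposited FPKM values (fragments scaled by transcript length and by the fragments of the library, as the unit is named in the deposited table). They are per transcript length, so levels can be set beside each other between genes. Differences are on the log2(FPKM + 1) scale with their standard error, from limma fitted over 14089 genes with at least 1 FPKM in at least 4 of the 16 libraries. All 50 cell cycle genes were among them. A gene is called higher or lower at a Benjamini-Hochberg adjusted p below 0.05. The added 1 understates differences of genes with low levels. Read counts were not used here, and counting intervals are not given because depth is unknown.

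The sorted groups carried the markers their labels name. All 8 EC markers, among them Tph1 and Chga, were higher in EC than in epi libraries at either site. Summed Paneth cell markers in crypt EC were 3.02% to 4.59% of their mean in crypt epi, and summed goblet cell markers 3.55% to 5.39%. Summed enterocyte markers were at 6.85% to 18.2% and summed tuft cell markers at 20.9% to 28.3%. Summed stroma and endothelium markers ran the other way, at 19.5 to 35.6 FPKM in crypt EC and 2.51 to 3.69 FPKM in crypt epi, most of it in crypt EC from Pecam1, an adhesion gene of endothelium and blood cells. Summed stem cell markers in crypt EC were 59.9% to 91.7% of their mean in crypt epi. Most of that sum in crypt EC was from Olfm4. Of the 12 stem cell markers, 6 were called lower and 1 higher in crypt EC, where 20.0% and 23.2% of all tested genes were. The part of these cell types in the results below was not tested. Among the libraries, villus epi replicate 2 stood apart: its mean correlation with the other libraries of its group was 0.812, against 0.923 to 0.926 for the other 3, and its value was the highest of its group for 30 of the 50 cell cycle genes. It also had 24.6 FPKM of the leukocyte gene Ptprc, against 1.06 to 1.69 in the other 3, and Cd3e was at 0.412 to 0.751 FPKM in all 4. Its summed stroma and endothelium markers were 30.5 FPKM, against 4.54 to 7.11 in the other 3, and its summed B, plasma and myeloid cell markers 62.8 FPKM, against 31.4 to 35.2. Its summed enterocyte markers (100622 FPKM, against 120227 to 148081) and goblet cell markers (19552 FPKM, against 26821 to 38429) were the lowest of its group. The part of these cells in its values was not tested. Counts of called genes are given with and without this library.

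Replication and mitosis genes were lower in crypt EC than in crypt epi, and mitosis genes by more. Of the 50 genes, 41 were called lower and 2 higher in crypt EC, against 20.0% of all tested genes called lower and 23.2% called higher. The 41 comprised 13 of 15 replication genes (median log2 difference -1.22), 22 of 23 mitosis genes (median -1.82), 5 of 8 G1 cyclins and kinases (median -0.87) and 1 of 4 CDK inhibitors, beside a median of 0.05 over all tested genes. After each library was scaled to a common total, which moved the median of all genes by 0.45 and the share of calls that were higher to 80.7%, against 53.6%, 31 genes were called lower and 4 higher, with medians of -0.70 for replication and -1.34 for mitosis. Of all 14089 tested genes, 1436 were called lower and 5994 higher after that scaling. Without villus epi replicate 2, 44 of the 50 were called lower and 4 higher. Calls rose for all tested genes as well, to 4294 lower and 4726 higher, against 2824 and 3264. The libraries of the 2 groups did not overlap for 44 genes that were lower and 3 that were higher in crypt EC, where 28.3% and 31.3% of all tested genes showed such a separation. In bulk libraries, fewer cells with a transcript and less of it per cell cannot be told apart.

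**Figure D1:**
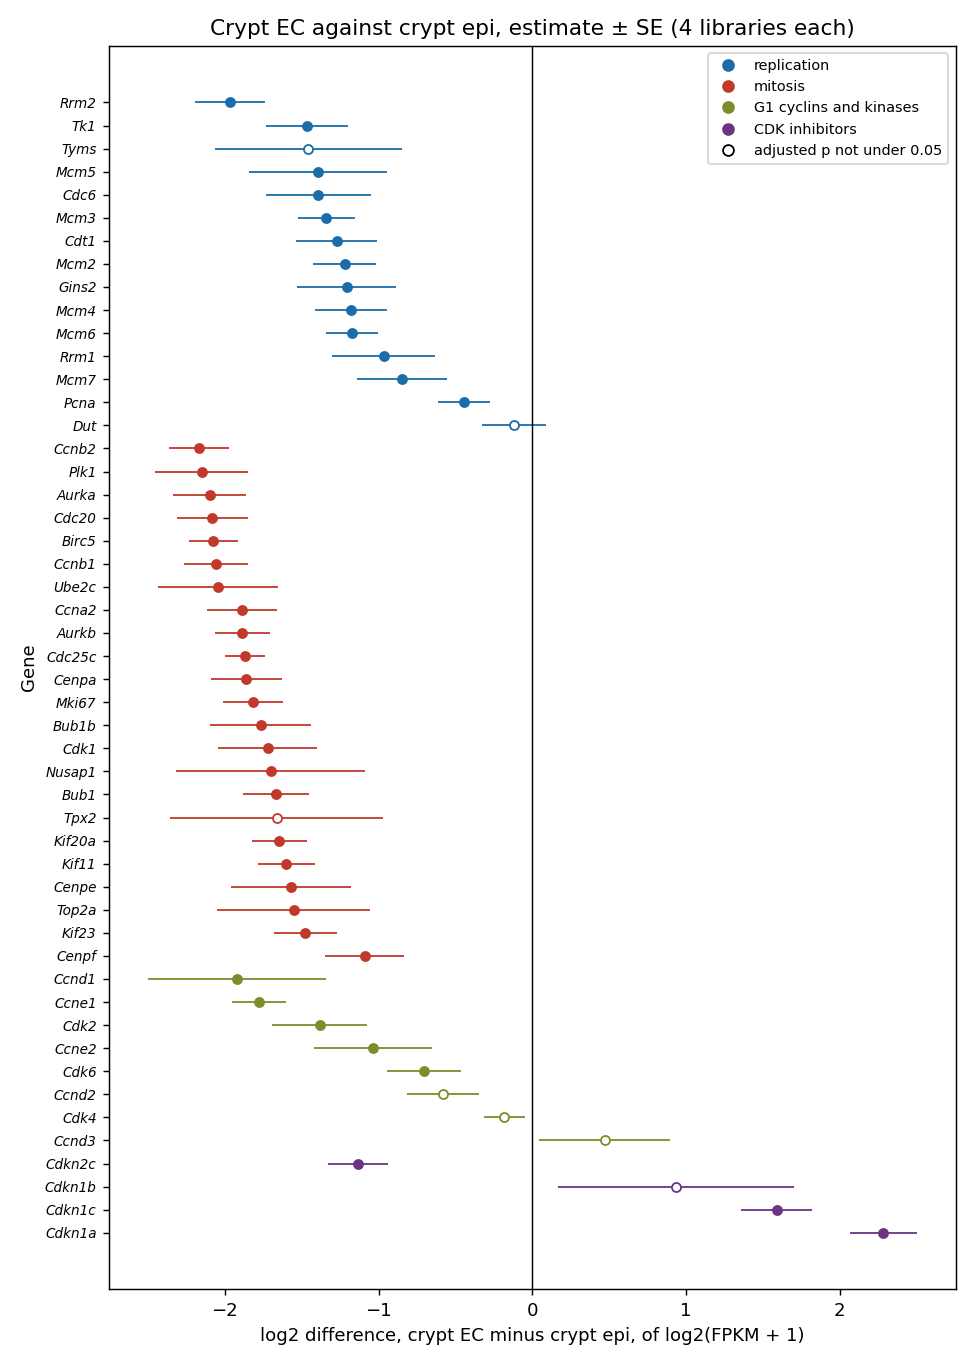
Log2 difference between crypt EC and crypt epi for each of the 50 genes (horizontal axis, log2(FPKM + 1) scale, points with SE, 4 libraries in each group), ordered within each class. Filled points are called at an adjusted p below 0.05. All 15 replication and 23 mitosis points lie left of 0, and Cdkn1a and Cdkn1c lie farthest to the right.

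The 10 genes of replication licensing and the fork were all called lower in crypt EC, though some of these calls depended on scaling. Mcm2 to Mcm7 encode the 6 subunits of the helicase that is loaded onto origins and unwinds DNA at the fork. Mcm6 had 60.3, 47.1, 44.5 and 43.1 FPKM in crypt EC, against 109, 109.7, 120.2 and 103 FPKM in crypt epi, a difference of -1.17 ± 0.17 (SE, adjusted p = 4.0e-05). No crypt EC library reached the lowest crypt epi library. Mcm3 averaged 15.4 ± 4.58 FPKM in crypt EC and 39.7 ± 3.45 FPKM in crypt epi (SD, n = 4 each), and Mcm5 averaged 19.1 ± 4.98 FPKM in crypt EC and 50.8 ± 4.37 FPKM in crypt epi. Across the 6 subunits crypt EC held 37.5% (Mcm5) to 55.4% (Mcm7) of the crypt epi mean. Cdc6 and Cdt1, which load the helicase, were at 34.2% and 39.7%, and Gins2, a subunit of the GINS complex that activates it, was at 41.5%. Pcna, the sliding clamp of the DNA polymerases, changed least among the licensing and fork genes called, with 62.4 ± 8.51 FPKM in crypt EC and 84.8 ± 5.32 FPKM in crypt epi (SD, n = 4 each; log2 difference -0.44 ± 0.17 SE, adjusted p = 0.046). Scaled to a common total per library, the Pcna difference was 0.09 (adjusted p = 0.72), so its direction depends on the scaling. With that scaling Mcm7 (-0.32, adjusted p = 0.41), Mcm5 (-0.87, adjusted p = 0.10) and Gins2 (-0.70, adjusted p = 0.057) were not called.

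The genes of nucleotide supply split. Rrm2, the regulated small subunit of ribonucleotide reductase, had 13.2, 13.2, 11.2 and 9.86 FPKM in crypt EC, against 48.1, 46.6, 54.8 and 46.9 FPKM in crypt epi (log2 difference -1.97 ± 0.23 SE, adjusted p = 4.1e-06). Its groups lay far apart, and its share of 24.1% was the lowest of the 15 replication genes. Rrm1, the large subunit, stood at 50.2%, and Tk1, the thymidine kinase of the salvage pathway, at 36.2%. Tyms, the thymidylate synthase, averaged 46.1 ± 9.90 FPKM in crypt EC and 127 ± 11 FPKM in crypt epi (SD, n = 4 each), yet its adjusted p was 0.066. Without villus epi replicate 2, where Tyms had 53.8 FPKM against 3.00 to 3.61 in the other 3, the same difference of -1.46 had an adjusted p of 1.9e-07. Dut, which clears dUTP, was the exception: 49.2, 32.1, 34.3 and 32.2 FPKM in crypt EC overlapped 43.7, 36.0, 42.3 and 37.0 FPKM in crypt epi, and its difference of -0.12 ± 0.21 (SE) was not called.

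Promoter windows of the replication and mitosis genes were searched for known elements. As background, in mammals E2F factors bind sites in the promoters of many G1/S genes, while many G2/M promoters carry a CHR (cell cycle genes homology region) next to CCAAT boxes. RefSeq promoter windows of GRCm38.p6, from 250 bases before to 50 bases after the transcription start, matched 39 of the 50 genes, including 13 of the 15 replication and 18 of the 23 mitosis genes. They were searched on both strands for an E2F site (TTTGGCGC, TTTCCCGC, TTTCGCGC or TTTGCCGC), a CHR (TTTGAA or TTTAAA) and a CCAAT box (CCAAT), and overlapping matches were each counted. An E2F site was found in 6 of 13 replication genes (46.2%) and 1 of 18 mitosis genes (5.56%), against 4.5% of the 10355 tested genes with a window and 2.605% of all 27025. The windows of Mcm6 (chr1:128359656-128359955, minus strand) and Mcm5 (chr8:75109259-75109558, plus strand) are shown as 2 of the 6 replication windows with an E2F site, with the matches of all motifs in capitals.
Mcm6: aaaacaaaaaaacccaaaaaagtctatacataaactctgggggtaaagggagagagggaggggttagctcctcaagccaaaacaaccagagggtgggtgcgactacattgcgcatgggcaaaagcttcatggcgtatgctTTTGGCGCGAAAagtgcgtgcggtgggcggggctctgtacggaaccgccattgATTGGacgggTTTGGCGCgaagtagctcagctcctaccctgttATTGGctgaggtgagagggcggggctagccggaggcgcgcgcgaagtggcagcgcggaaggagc
Mcm5: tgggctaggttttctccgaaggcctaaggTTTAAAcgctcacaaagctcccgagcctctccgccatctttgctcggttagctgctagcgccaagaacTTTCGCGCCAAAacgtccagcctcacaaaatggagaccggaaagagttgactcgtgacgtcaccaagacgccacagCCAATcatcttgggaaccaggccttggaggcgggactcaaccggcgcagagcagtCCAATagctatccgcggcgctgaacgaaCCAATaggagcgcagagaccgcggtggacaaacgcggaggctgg
In Mcm6 the capitals mark 3 E2F matches, of which TTTGGCGC and GCGCGAAA overlap, and 2 CCAAT boxes on the other strand (ATTGG). In Mcm5 they mark 2 overlapping E2F matches, 3 CCAAT boxes and a TTTAAA. A match describes the letters and is not evidence of binding.

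Mitosis genes held a smaller share of their crypt epi level in crypt EC than replication genes did. The share had a median of 25.6% over the 23 mitosis genes, from 20.2% (Cdc25c) to 40.4% (Cenpf), and of 41.5% over the 15 replication genes, from 24.1% (Rrm2) to 93.0% (Dut). All 23 mitosis genes lay below the replication median, and 1 replication gene, Rrm2, lay below the mitosis median. The order held in each crypt EC library: the class medians were 55.5%, 38.6%, 37.1% and 38.8% for replication and 33.0%, 23.6%, 25.3% and 18.1% for mitosis in replicates 1 to 4. These are descriptions of the chosen genes, with no test between the classes.

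**Figure D2:**
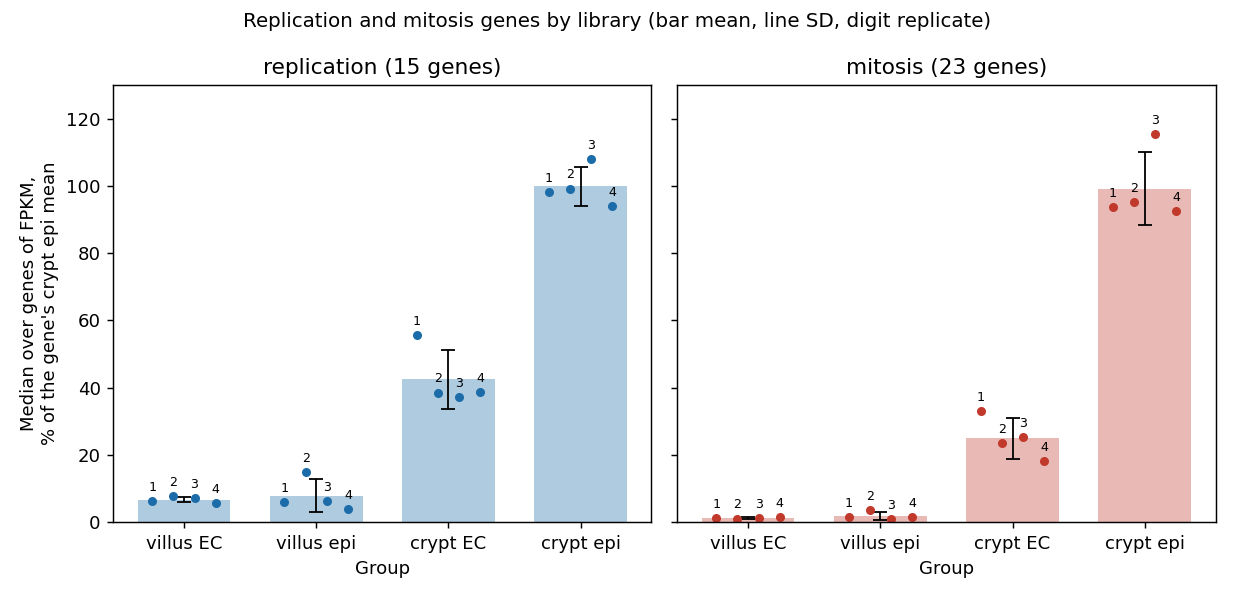
Median over 15 replication genes (left) and 23 mitosis genes (right) of each gene's FPKM as a percentage of its crypt epi mean (vertical axis), by library. Bars are means of 4 libraries, lines SD and digits replicate numbers. Crypt EC lies at 42.5% for replication and 25.0% for mitosis, villus EC at 6.75% and 1.29%, and villus epi at 7.82% and 1.86%.

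The kinases that drive entry into mitosis, and the cyclins and phosphatase that activate them, were all lower in crypt EC. Cdk1, the central mitotic kinase, had 47.3, 31.4, 30.4 and 22.1 FPKM in crypt EC, against 94.7, 114, 123 and 97.4 FPKM in crypt epi. Its B-type cyclins fell further. Ccnb1 averaged 22.6 ± 6.39 FPKM in crypt EC and 95.0 ± 11.3 FPKM in crypt epi (SD, n = 4 each; log2 difference -2.06 ± 0.21 SE, adjusted p = 8.7e-07), and Ccnb2 averaged 15 ± 3.25 FPKM in crypt EC and 70.4 ± 9.10 FPKM in crypt epi, the lowest difference of the 50 genes at -2.17 ± 0.20 (SE, adjusted p = 2.8e-07). Ccna2, cyclin A2, acts from S phase onward and stood at 27.0% of crypt epi. Cdc25c, a phosphatase that activates Cdk1, was at 20.2%, with levels of 1.75 to 2.39 FPKM in crypt EC and 9.31 to 11.2 FPKM in crypt epi. Plk1, Aurka and Aurkb, kinases of centrosome maturation, spindle assembly and chromosome attachment, were at 21.6%, 22.5% and 25.6%.

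Genes of the spindle checkpoint and of anaphase followed the same course. Cdc20, the activator of the anaphase-promoting complex, had 37.1, 20.2, 25.3 and 23.2 FPKM in crypt EC, against 104, 119, 115 and 112 FPKM in crypt epi (log2 difference -2.08 ± 0.23 SE, adjusted p = 2.9e-06). The groups were far apart, with crypt EC replicate 1 the highest of its group. Ube2c, the ubiquitin-conjugating enzyme of that complex, was at 24.1% of crypt epi, and the checkpoint kinases Bub1 and Bub1b at 24.7% and 26.6%.

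The genes of mitotic chromosomes, kinetochores and the spindle made up the remaining 11 mitosis genes. Mki67, the source of the Ki-67 proliferation marker, had low levels of 3.5, 3.02, 2.42 and 1.28 FPKM in crypt EC, against 10.9, 11.2, 12.4 and 10.2 FPKM in crypt epi (log2 difference -1.82 ± 0.19 SE, adjusted p = 1.7e-06). Birc5, the survivin subunit of the chromosomal passenger complex, averaged 29.5 ± 5.94 FPKM in crypt EC and 126 ± 17.8 FPKM in crypt epi (SD, n = 4 each), and Top2a, the topoisomerase that untangles chromosomes, averaged 20.7 ± 5.13 FPKM in crypt EC and 62.4 ± 14.6 FPKM in crypt epi. Cenpa, the centromeric histone, was at 27.2% of crypt epi, and the kinetochore proteins Cenpe and Cenpf at 22.4% and 40.4%. The spindle motors Kif11, Kif20a and Kif23 were at 26.7%, 28.4% and 34.7%. Nusap1, a spindle protein, was at 27.1% and was called. The call was lost when any 1 of the 8 crypt libraries was left out (adjusted p = 0.055 to 0.086). Its crypt libraries did not overlap, at 4.61 to 6.32 FPKM in crypt EC and 17.3 to 27.1 FPKM in crypt epi. Villus epi replicate 2 had 17.2 FPKM of Nusap1, against 0.102 to 0.645 FPKM in the other 3. The fit shares 1 estimate of the spread over all 4 groups. Tpx2, which activates Aurora A at the spindle, was not called at 28.2% (log2 difference -1.66 ± 0.69 SE, adjusted p = 0.066). Villus epi replicate 2 had 23.2 FPKM of Tpx2 and the other 3 had 0.0984 to 0.599 FPKM; without it the adjusted p was 2.5e-07.

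In the promoter windows of 18 mitosis genes, a CHR was found in 16 (88.9%), against 4 of 13 replication genes (30.8%), 22.9% of tested genes and 30.6% of all genes with a window. A CCAAT box was found in 16 of the 18 (88.9%), against 8 of 13 replication genes (61.5%) and 43.3% of tested genes. The pair of a CHR and a CCAAT box stood in 15 of 18 mitosis genes (83.3%), against 3 of 13 replication genes (23.1%) and 10.9% of tested genes. The windows of Ccnb1 (chr13:100786437-100786736, minus strand), Ccnb2 (chr9:70421505-70421804, minus strand) and Cdc20 (chr4:118437294-118437593, minus strand) are shown because these genes had some of the largest differences and hold both motifs, in capitals.
Ccnb1: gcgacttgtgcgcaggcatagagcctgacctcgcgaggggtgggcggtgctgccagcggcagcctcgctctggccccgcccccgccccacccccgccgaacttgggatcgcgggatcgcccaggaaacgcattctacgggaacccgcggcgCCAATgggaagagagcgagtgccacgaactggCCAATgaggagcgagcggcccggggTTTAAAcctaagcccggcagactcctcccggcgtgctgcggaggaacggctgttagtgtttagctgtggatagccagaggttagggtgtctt
Ccnb2: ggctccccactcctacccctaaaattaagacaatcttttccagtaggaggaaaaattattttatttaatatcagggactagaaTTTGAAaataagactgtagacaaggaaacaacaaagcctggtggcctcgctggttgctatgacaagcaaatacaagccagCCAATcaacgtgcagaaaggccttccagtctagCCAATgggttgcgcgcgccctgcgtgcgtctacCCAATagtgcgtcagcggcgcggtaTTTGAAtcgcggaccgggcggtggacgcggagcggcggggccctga
Cdc20: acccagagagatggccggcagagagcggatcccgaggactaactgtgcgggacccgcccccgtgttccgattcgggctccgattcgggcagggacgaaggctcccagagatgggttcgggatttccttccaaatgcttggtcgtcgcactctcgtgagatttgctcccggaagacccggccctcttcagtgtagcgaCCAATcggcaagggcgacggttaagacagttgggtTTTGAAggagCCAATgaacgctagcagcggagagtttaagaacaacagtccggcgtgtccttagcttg
Ccnb1 holds 2 CCAAT boxes and a TTTAAA between them and the transcription start. Ccnb2 holds 3 CCAAT boxes with a TTTGAA on either side of them, and Cdc20 holds a TTTGAA between 2 CCAAT boxes. None of the 3 windows holds the E2F letters searched for, which says nothing about E2F binding elsewhere.

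Most replication and mitosis genes ranked the crypt EC libraries alike. Crypt EC replicate 1 was the highest of its group for 13 of 15 replication and 21 of 23 mitosis genes, and replicate 4 was the lowest for 21 of 23 mitosis genes. Pcna ran the other way, with 50.9 FPKM in replicate 1 and 63.1 to 71.3 FPKM in the other 3, and Cenpe and Cenpf were highest in replicates 2 and 3. Replicate 1 also had 1337 FPKM of the stem cell gene Olfm4, against 787 to 861 in the other 3, and 11.8 FPKM of Neurog3, against 6.04 to 8.48. It had the lowest Tph1 (3678 FPKM, against 5573 to 6163) and the lowest Cdkn1a (518 FPKM, against 884 to 906). Its 7 endocrine progenitor markers, Neurog3 and Cdkn1a among them, summed to 763 FPKM, the lowest of its group, against 1155 to 1179. Most of each sum was Cdkn1a, so the sum largely repeats the Cdkn1a values above, while Neurog3 was highest in replicate 1. The part of stem or progenitor transcripts in the crypt EC values of cell cycle genes was not tested. Without replicate 1 the class medians were -1.35 for replication and -1.92 for mitosis, and 39 genes were called lower. Of all tested genes, 2687 were then called lower, against 2824. Among crypt epi libraries, replicate 3 was the highest for 22 of 23 mitosis genes. Without it 35 of the cell cycle genes and 2526 of all tested genes were called lower. The same library had the lowest summed enterocyte markers of its group (3083 FPKM, against 9145 to 9244) and the lowest summed tuft cell markers (22.1 FPKM, against 37.6 to 49.2), and their part in its values was not tested.

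G1 cyclins did not move as a group between crypt EC and crypt epi. Ccnd1, cyclin D1, had 13.2, 9.88, 9.20 and 9.34 FPKM in crypt EC, against 41.4, 36.1, 55.3 and 36.7 FPKM in crypt epi (log2 difference -1.92 ± 0.58 SE, adjusted p = 0.014). Ccnd2, cyclin D2, was the most abundant of the D cyclins, with 171, 273, 286 and 292 FPKM in crypt EC and 401, 388, 345 and 362 FPKM in crypt epi. Its groups did not overlap, its difference of -0.58 ± 0.23 (SE) had an adjusted p of 0.059, and without villus epi replicate 2 the adjusted p was 0.0031. Ccnd3, cyclin D3, leaned the other way, with 62.4, 94.5, 94.4 and 99.8 FPKM in crypt EC and 59.6, 69.8, 62.0 and 57.3 FPKM in crypt epi (log2 difference 0.47 ± 0.43 SE, adjusted p = 0.41, and 0.0067 without villus epi replicate 2). Cdk4, the partner kinase of the D cyclins, had similar levels of 205 ± 20.5 FPKM in crypt EC and 232 ± 16.2 FPKM in crypt epi (SD, n = 4 each), a difference of -0.18 ± 0.13 (SE) that was not called and was 0.36 (adjusted p = 0.031) after scaling to a common total. Cdk6, the other partner kinase, averaged 9.64 ± 1.20 FPKM in crypt EC and 16.3 ± 1.5 FPKM in crypt epi.

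The genes of the step into S phase were lower in crypt EC. Ccne1, cyclin E1, had 5.71, 3.46, 5.15 and 3.62 FPKM in crypt EC, against 17.0, 16.5, 18.5 and 18.1 FPKM in crypt epi (log2 difference -1.78 ± 0.18 SE, adjusted p = 8.7e-07). Its kinase Cdk2 stood at 36.4% of crypt epi, with 10.1 to 12.1 FPKM in crypt EC and 30.1 to 33.0 FPKM in crypt epi. Ccne2, cyclin E2, was at 45.0% (log2 difference -1.04 ± 0.38 SE, adjusted p = 0.040). That call was lost under 12 alternatives, among them leaving out any 1 crypt epi library (adjusted p = 0.064 to 0.079), no filter (adjusted p = 0.055) and scaling to a common total (adjusted p = 0.25). Its crypt libraries did not overlap, at 4.06 to 6.81 FPKM in crypt EC and 10.7 to 12.1 FPKM in crypt epi. Villus epi replicate 2 had 18.7 FPKM of Ccne2, against 2.67 to 9.26 FPKM in the rest of its group. The fit shares 1 estimate of the spread over all 4 groups.

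Cdkn1a had the highest mean level of the 50 genes in villus EC, villus epi and crypt EC, but not in crypt epi. The gene, at chr17:29090976-29100727 on mm10, had 518, 906, 888 and 884 FPKM in crypt EC, against 166, 176, 131 and 168 FPKM in crypt epi (log2 difference 2.28 ± 0.22 SE, adjusted p = 5.3e-07). Cdkn1c, which encodes p57, was lower in level but also higher in crypt EC, with 20.7 ± 2.82 FPKM in crypt EC and 6.29 ± 1.49 FPKM in crypt epi (SD, n = 4 each; log2 difference 1.59 ± 0.23 SE, adjusted p = 3.9e-05). Cdkn1b, which encodes p27, had 3.23, 2.60, 2.25 and 3.61 FPKM in crypt EC, all above 0.621, 0.922, 1.23 and 1.46 FPKM in crypt epi. Its difference of 0.93 ± 0.77 (SE) had an adjusted p of 0.36, and of 0.00075 without villus epi replicate 2. Cdkn2c, which encodes p18, ran against these: 1.59 ± 0.167 FPKM in crypt EC and 4.70 ± 0.534 FPKM in crypt epi (SD, n = 4 each; log2 difference -1.13 ± 0.19 SE, adjusted p = 2.0e-04).

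**Figure D3:**
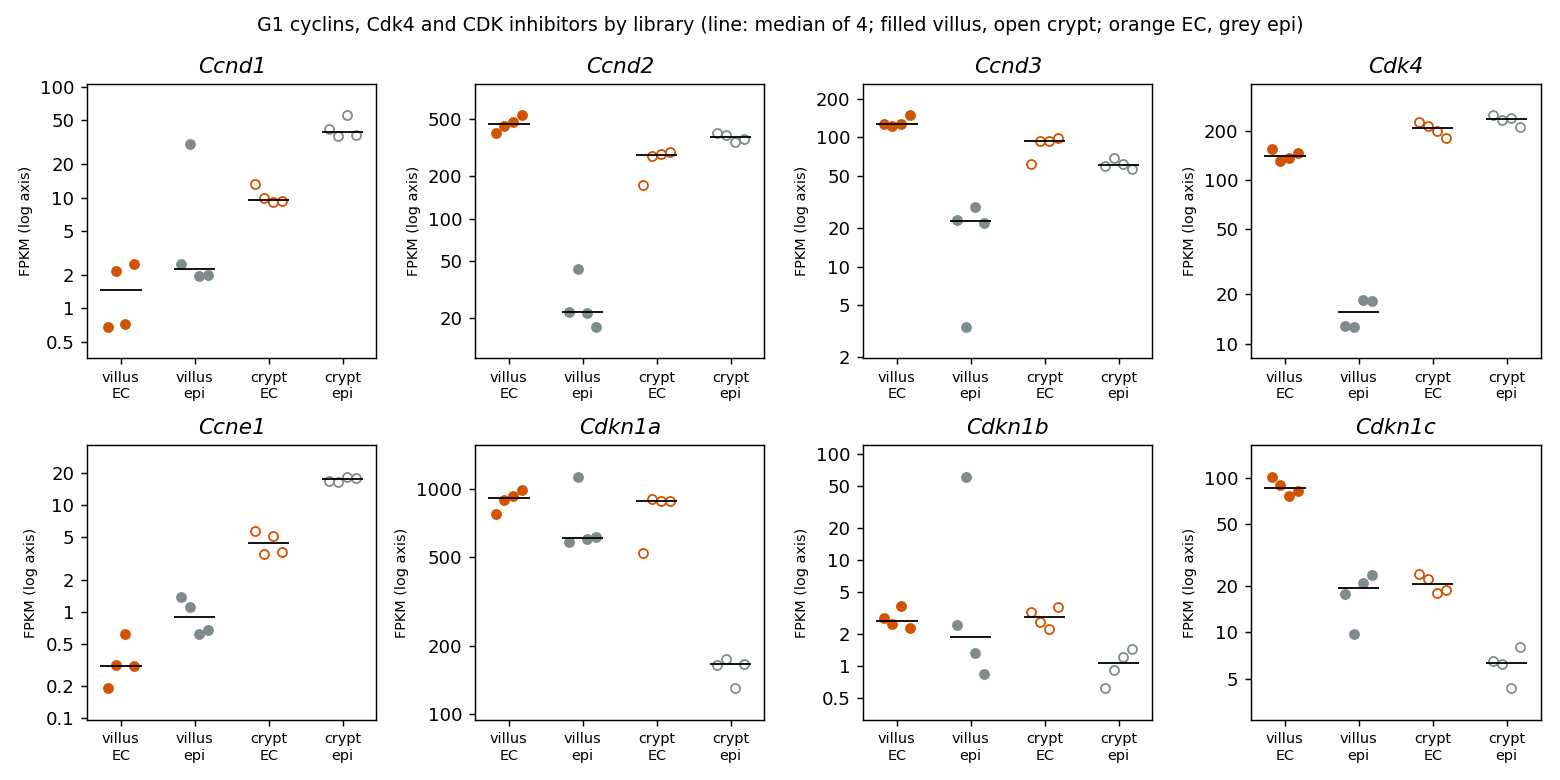
FPKM of 8 genes by library (vertical log axis) in villus EC, villus epi, crypt EC and crypt epi, with a line at the median of 4 libraries. Ccnd2, Ccnd3 and Cdk4 are high in villus EC and low in villus epi, and Cdkn1a is low in crypt epi alone. The high grey point of Ccnd1 and of Cdkn1b in villus epi is replicate 2.

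Between villus and crypt, the cycle genes were lower in the villus in EC cells and in the other epithelial cells. In villus EC against crypt EC, 41 of the 50 genes were called lower and 2 higher, where 16.2% and 10.3% of all tested genes were. Without villus epi replicate 2, Ccnd3 was a further gene called higher (log2 difference 0.59, adjusted p = 0.0021). The lower genes comprised 14 of 15 replication genes (median -2.24), 22 of 23 mitosis genes (median -2.35) and 5 of 8 G1 genes (median -1.19), beside a median of -0.05 over all tested genes. The libraries of the 2 groups did not overlap for 41 genes that were lower and 3 that were higher in villus EC, where 26.2% and 19.0% of all tested genes showed such a separation. Villus EC held a median of 18.9% of the crypt EC mean over replication genes and 5.83% over mitosis genes. In villus EC, 16 of 23 mitosis genes averaged below 1 FPKM. Cdc20 had 0.552, 0.160, 1.68 and 0.467 FPKM in villus EC, against 37.1, 20.2, 25.3 and 23.2 FPKM in crypt EC (log2 difference -4.04 ± 0.23 SE, adjusted p = 7.0e-09). Ccnb1 averaged 0.241 ± 0.0281 FPKM in villus EC and 22.6 ± 6.39 FPKM in crypt EC (SD, n = 4 each).

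Some cycle genes fell less than most between crypt and villus EC cells, or were higher in villus EC. Gins2 had 11.6, 13.9, 15.1 and 8.73 FPKM in villus EC, overlapping 14.6, 10.9, 9.66 and 7.96 FPKM in crypt EC. Plk1 had 10.3, 8.43, 9.29 and 5.27 FPKM in villus EC and 16.9, 11.4, 11.2 and 8.64 FPKM in crypt EC (log2 difference -0.48 ± 0.30 SE, adjusted p = 0.29), so of 8 mitotic kinases and activators it alone was not called. Ccnd2 was higher in villus EC, with 398, 446, 474 and 530 FPKM against 171, 273, 286 and 292 FPKM in crypt EC (log2 difference 0.88 ± 0.23 SE, adjusted p = 0.011, and 0.67 with an adjusted p of 0.054 after scaling to a common total). Cdk4 was called lower, with 142 ± 10.6 FPKM in villus EC and 205 ± 20.5 FPKM in crypt EC (SD, n = 4 each; log2 difference -0.52 ± 0.13 SE, adjusted p = 0.0085). Cdkn1c was the other gene called higher, at 87.3 ± 10.7 FPKM in villus EC and 20.7 ± 2.82 FPKM in crypt EC (SD, n = 4 each; log2 difference 2.03 ± 0.23 SE, adjusted p = 8.7e-06). Cdkn1a differed little between the EC groups, with 776, 899.6, 932 and 992 FPKM in villus EC and 518, 906, 888 and 884 FPKM in crypt EC (log2 difference 0.20 ± 0.22 SE, adjusted p = 0.59).

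In villus epi against crypt epi the class medians were lower still. There 46 of the 50 genes were called lower and 2 higher, where 35.4% and 19.6% of all tested genes were, and all 15 replication genes (median -3.78) and all 23 mitosis genes (median -3.93) were lower, beside a median of -0.19 over all tested genes. Without villus epi replicate 2, Ccne2 was a further gene called lower (-1.02, adjusted p = 0.0058). Cdc20 had 0.430, 0.291, 0.582 and 0.231 FPKM in villus epi, against 104, 119, 115 and 112 FPKM in crypt epi, the largest villus against crypt difference of the 50 genes (-6.36 ± 0.23 SE, adjusted p = 1.2e-11). Ccnd2 and Cdk4 were among the genes called lower here: Ccnd2 averaged 26.5 ± 12.2 FPKM in villus epi and 374 ± 25.1 FPKM in crypt epi, and Cdk4 averaged 15.6 ± 3.26 FPKM in villus epi and 232 ± 16.2 FPKM in crypt epi (SD, n = 4 each). Cdkn1a was higher in villus epi, with 585, 1136, 603 and 611 FPKM against 166, 176, 131 and 168 FPKM in crypt epi (log2 difference 2.14 ± 0.22 SE, adjusted p = 6.5e-07). Cdkn1c was the other gene called higher (1.33 ± 0.23 SE, adjusted p = 1.3e-04).

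**Figure D4:**
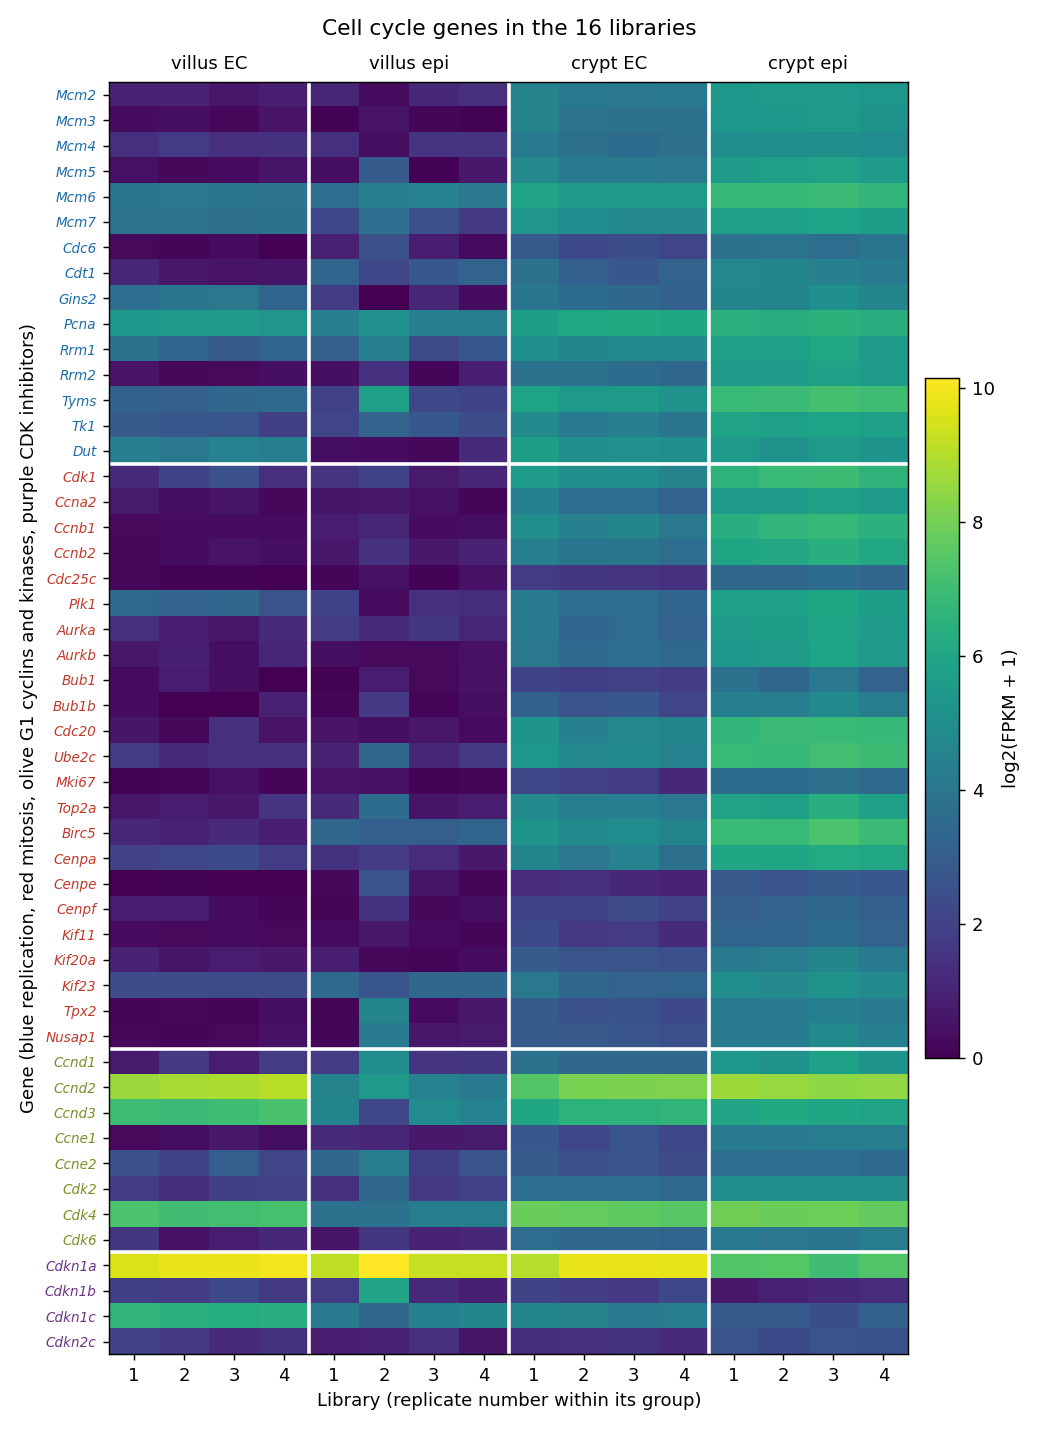
Log2(FPKM + 1) of the 50 genes (rows, by class) in the 16 libraries (columns, by group and replicate number). Most replication and mitosis genes are highest in crypt epi, intermediate in crypt EC and low in both villus groups, with Gins2, Plk1, Dut and Pcna among the exceptions. Ccnd2, Ccnd3 and Cdk4 are higher in villus EC than in villus epi, and Cdkn1a is high everywhere but in crypt epi.

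Within the villus, Ccnd2, Dut, Cdk4 and Ccnd3 had the largest differences between EC and epi. Of the 50 genes, 11 were called higher and 6 lower in villus EC, set against villus epi, where 40.6% and 21.6% of all tested genes were, so the share called higher lay below that of all genes. Ccnd2 had 398, 446, 474 and 530 FPKM in villus EC, against 22.3, 44.5, 21.7 and 17.4 FPKM in villus epi (log2 difference 4.16 ± 0.23 SE, adjusted p = 5.5e-10). Cdk4 averaged 142 ± 10.6 FPKM in villus EC and 15.6 ± 3.26 FPKM in villus epi, and Ccnd3 averaged 131 ± 11.7 FPKM in villus EC and 19.3 ± 11.1 FPKM in villus epi (SD, n = 4 each). In the crypt the EC minus epi differences of these 3 were -0.58, -0.18 and 0.47, and none was called. Dut had 20.5, 15.6, 21.5 and 19.7 FPKM in villus EC, against 0.338, 0.257, 0.174 and 1.30 FPKM in villus epi (log2 difference 3.79 ± 0.21 SE, adjusted p = 4.0e-10). Mcm7, Pcna, Gins2, Plk1, Cenpa, Cdkn1c and Cdkn2c were the other genes called higher in villus EC. Of these, Mcm7, Pcna, Gins2, Plk1, Cenpa and Cdkn2c were called lower in crypt EC than in crypt epi. The crypt calls of Mcm7, Pcna and Gins2 were lost after scaling to a common total. Cdkn1a was not called in the villus (log2 difference 0.35 ± 0.22 SE, adjusted p = 0.18), and differed by 0.58 (adjusted p = 0.0055) without villus epi replicate 2. Without that library 15 genes were called higher and 7 lower: Tyms (1.20), Cdkn1b (0.63) and Rrm1 (0.57) were also called higher and Mcm2 (-0.33) lower. Calls rose for all tested genes as well, to 6762 higher and 3756 lower, against 5724 and 3046.

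Among the genes called lower in villus EC, the licensing factor Cdt1 had 1.10, 0.576, 0.434 and 0.489 FPKM in villus EC, against 9.05, 3.52, 5.97 and 8.31 FPKM in villus epi (log2 difference -2.18 ± 0.26 SE, adjusted p = 3.2e-06). Birc5 averaged 1.04 ± 0.239 FPKM in villus EC and 8.17 ± 0.896 FPKM in villus epi (SD, n = 4 each; -2.17 ± 0.16 SE, adjusted p = 1.0e-08). For both genes, every villus EC library lay below every villus epi library. Cdc6, Kif23, Ccnb2 and Ccne1 were the other 4, with differences of -0.97 to -0.51. After scaling to a common total, 16 genes were called higher and 2 lower, with the median of all genes moved by 0.49 and 80.4% of all calls higher, against 65.3%. Of all 14089 tested genes, 7871 were called higher and 1920 lower after that scaling, against 5724 and 3046.

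The difference between EC and epi was itself unlike at the 2 sites. The interaction of cell type and site was called for 32 of the 50 genes with a higher EC minus epi difference in the villus than in the crypt and for 1 with a lower, where 26.9% and 16.0% of all tested genes were. The 32 comprised 10 replication, 17 mitosis and 4 G1 genes and 1 inhibitor, Cdkn2c. The gene with the lower difference was Cdkn1a, at 2.28 in the crypt and 0.35 in the villus (interaction -1.94 ± 0.31 SE, adjusted p = 1.3e-04). The largest interaction was that of Ccnd2 (4.74 ± 0.33 SE, adjusted p = 5.3e-08). Without villus epi replicate 2, 43 were called with a higher and 2 with a lower difference. Calls rose for all tested genes as well, to 5217 higher and 3422 lower, against 3792 and 2258. With a pseudocount of 0.1 in place of 1, 22 were called with a higher and 3 with a lower difference. Over all tested genes that pseudocount gave 3467 and 2116. In the villus, 16 of 23 mitosis genes averaged below 1 FPKM in EC and 12 of 23 in epi libraries.

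**Figure D5:**
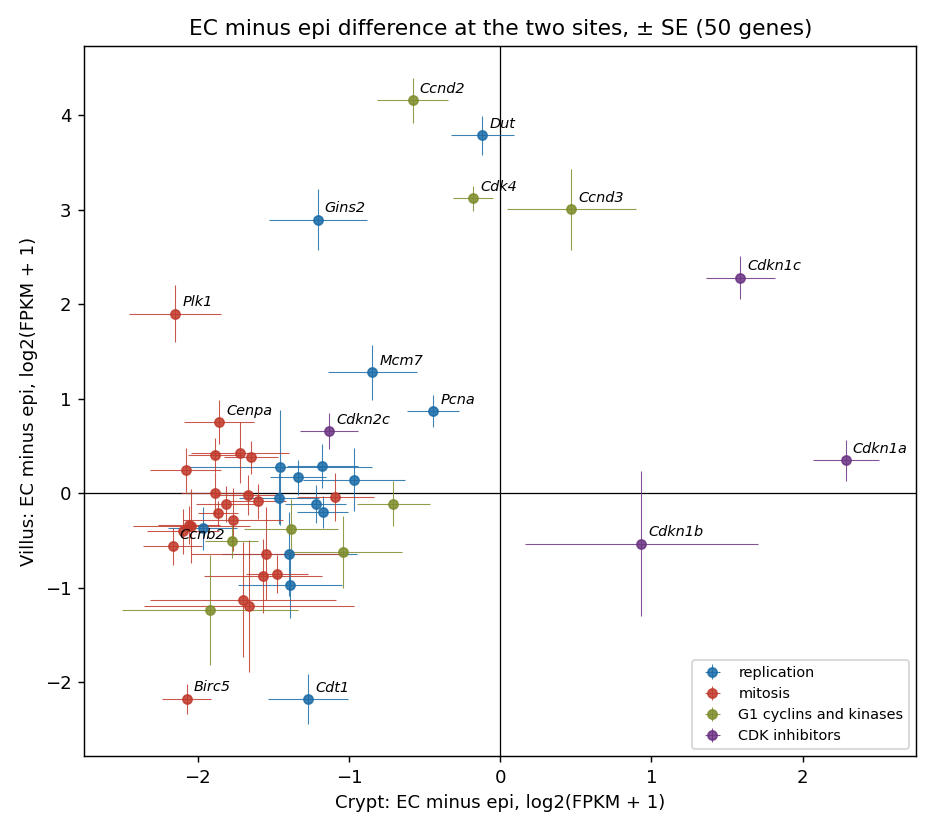
EC minus epi difference of log2(FPKM + 1) in the crypt (horizontal axis) and in the villus (vertical axis) for the 50 genes, with SE. Most replication and mitosis genes lie left of 0 and near 0 on the vertical axis. Ccnd2 (4.16), Dut (3.79), Cdk4 (3.12) and Ccnd3 (3.00) lie highest, and Cdkn1a lies farthest to the right.

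The position of some of these genes limits what their values show. The library kit does not mark strand, and exons of 19 of the 50 genes overlap exons of a gene on the opposite strand in the GENCODE annotation of mm10. This holds for 7 of the 11 genes called higher in villus EC, against villus epi, and for 14 of the 41 called lower in crypt EC than in crypt epi. Gins2 overlaps Gse1, which averaged 58.1 FPKM in villus EC and 10.3 FPKM in villus epi, and 28 FPKM in crypt EC and 5.30 FPKM in crypt epi. Cdk4 overlaps Tspan31 (186 FPKM in villus EC and 126 FPKM in villus epi, 148 FPKM in crypt EC and 117 FPKM in crypt epi). Ccnd3 overlaps Bysl (11.4 FPKM in villus EC and 1.38 FPKM in villus epi, 10.9 FPKM in crypt EC and 13.6 FPKM in crypt epi). Mcm7 overlaps Cops6 (171 FPKM in villus EC and 180 FPKM in villus epi) and Ap4m1 (9.47 FPKM in villus EC and 6.84 FPKM in villus epi). Reads of Gins2 and Gse1, or of the other pairs, cannot be told apart by strand, and their part in these values was not tested. The neighbours of Plk1, Ccnd2, Cdkn1a and Cdkn1c, among others, were not analysed here. Pcna, Tyms, Ccnb1, Ccnb2 and Ccnd3 have pseudogenes named for them, which could share reads with them.

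Other genes of the same pathways, from lists of known members, moved with the 50 in the crypt. Of 50 further replication genes, 28 were called lower and 1 higher in crypt EC than in crypt epi (median -0.82), where 20.0% and 23.2% of all tested genes were. Asf1b, a histone chaperone of the fork, differed most, with 16.4, 14.8, 12 and 9.59 FPKM in crypt EC against 37.8, 43.2, 49.5 and 41.4 FPKM in crypt epi. Fen1, the flap endonuclease of lagging-strand synthesis, Chaf1a, a subunit of chromatin assembly factor 1, and Uhrf1, which copies DNA methylation, had log2 differences of -1.56, -1.44 and -1.31. The 1 higher was Orc3, an origin recognition subunit, named here after its value was seen (0.56, adjusted p = 0.020). Of 55 further mitosis genes tested, 48 were called lower and none higher (median -1.58, at an unadjusted p below 0.05 50 lower and 0 higher), led by Cdca3, Cdkn3, Kif18b and Tacc3 with log2 differences of -2.12, -2.11, -1.94 and -1.89. These lists were chosen with earlier results known, and their medians are descriptions.

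Among regulators of cycle transcription, 9 of 22 E2F, RB and DREAM genes tested were called lower and 3 higher in crypt EC, where 20.0% and 23.2% of all tested genes were. Foxm1, which activates mitotic genes, had 3.42, 1.22, 1.27 and 1.55 FPKM in crypt EC, against 6.19, 7.29, 10.2 and 10.1 FPKM in crypt epi (log2 difference -1.76 ± 0.24 SE, adjusted p = 2.7e-05). Myc, a driver of progenitor growth, averaged lower as well, with 19.5 to 21.9 FPKM in crypt EC and 52.5 to 62.0 FPKM in crypt epi. The repressor E2f8 differed by -1.75 and the E2F partner Tfdp2 by -1.17. Rb1 and Rbl1, pocket proteins that hold E2F in check, were lower, with log2 differences of -0.86 (adjusted p = 0.0083) and -1.04 (adjusted p = 3.0e-04), and Rbl2 was not called (-0.33, adjusted p = 0.16). E2f1, E2f7 and Mybl2 were not called, with log2 differences of -0.60, -0.53 and -0.60. The 3 higher, named after their values were seen, were the DREAM subunits Lin9, Lin37 and Lin52, at 0.81, 0.32 and 0.60.

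Among other brakes on the cycle, 5 of 14 further inhibitors and antiproliferative genes were called higher and 2 lower in crypt EC, where 23.2% and 20.0% of all tested genes were. Cdkn2b, which encodes the Cdk4 and Cdk6 inhibitor p15, was lower, with 32.1, 25.0, 27.2 and 27.1 FPKM in crypt EC against 98.9, 90.7, 98.0 and 81.6 FPKM in crypt epi (log2 difference -1.69 ± 0.14 SE, adjusted p = 9.7e-08). Btg1, an antiproliferative gene, and Gadd45a, a growth arrest gene, were higher, with log2 differences of 1.45 and 1.22, and Pkmyt1, a kinase that inhibits Cdk1, was lower (-1.15). Of 15 p53 target genes, a list kept apart from Cdkn1a, itself a p53 target, 5 were higher and 3 lower, beside the same shares of all genes. Fas, Sesn1 and Pmaip1 were lower, with log2 differences of -2.53, -1.83 and -1.81, and Bbc3 was higher (0.84). Of 22 ubiquitin ligase genes of the cycle, 3 were higher and 4 lower, neither above the share of all genes, with Ccnf, Fbxo5 and Skp2 lower (log2 differences -1.85, -1.27 and -1.03) and Btrc higher (1.31).

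Between villus and crypt, 34 of the 50 further replication genes and 46 of the 55 further mitosis genes were lower in villus EC than in crypt EC, with 1 higher in each list, where 16.2% of all tested genes were lower. In villus epi 43 and 52 were lower than in crypt epi, with 1 and 0 higher, where 35.4% of all tested genes were lower. Asf1b and Uhrf1 fell by 3.36 and 3.38 on the log2 scale in villus EC, and Pbk, a mitotic kinase, fell by 3.95. Myc averaged 0.996 to 1.27 FPKM over villus EC libraries and 19.5 to 21.9 FPKM over crypt EC libraries. Against these, the stress gene Gadd45b was higher in villus EC, with 83.8, 128, 142 and 115 FPKM against 15.6, 39.3, 31.9 and 34.3 FPKM in crypt EC (log2 difference 1.97 ± 0.48 SE, adjusted p = 0.0067). Ccng2, a cyclin-like gene linked to arrest, differed most in the other epithelial cells, with 366, 355, 346 and 385 FPKM in villus epi against 19.8, 15.9, 15.5 and 22.8 FPKM in crypt epi (4.24 ± 0.16 SE, adjusted p = 1.8e-11), and was also higher in villus EC than in crypt EC (1.09 ± 0.16 SE, adjusted p = 1.1e-04).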

How the data were processed

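Gene-level values named FPKM, as the authors deposited them in 1 table of 16 libraries, were used unchanged. Per the submitters' processing notes, bcl2fastq 2.20, kallisto and sleuth were used with mouse build mm10, and the labels' protocols name full-length cDNA amplification from total RNA. The sources used here do not give the annotation release or the library scaling. Library totals ran from 731415 to 1415123 FPKM, so they are not shares of a fixed total. Read depth is unknown.

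Genes with at least 1 FPKM in at least 4 libraries (14089 of 20072) were tested on log2(FPKM + 1) with limma 3.58.1 in R 4.3.3 (4 group means, eBayes with trend, two-sided, no replicate block, Benjamini-Hochberg within each of 5 contrasts, called below 0.05). The script was tested on simulated data. Shares are ratios of group means of FPKM. Promoter windows are RefSeq's on GRCm38.p6. Of the 50 genes, 11 have no window there (Ccne2, Kif20a, Aurkb, Ccna2, Ccnd1, Ccnd2, Gins2, Tpx2, Cdc25c, Mcm4, Cdkn1c). Gene positions and overlaps were read by Ensembl identifier from GENCODE M21 on mm10. Plots used Python 3.11.15 (matplotlib 3.10.9).

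The 50 genes, the other gene lists and the tests were chosen with earlier results of these data known. All 50 genes may be named. Of each other list, the rule names up to 4 called genes with the largest change in a comparison, plus Lgr5, Olfm4, Neurog3, Sox4, Myc, E2f1, E2f7, E2f8, Foxm1, Mybl2, Rb1, Rbl1, Rbl2, Tph1, Chga, Chgb, Fabp1, Ptprc and Cd3e. Lin54 and Cdkn2a, of the other lists, were not analysed here. Cdk6 is also in the stem cell list and Cdkn1a in the endocrine progenitor list. Comparisons share groups: the crypt EC libraries enter 2 pairwise comparisons, as do those of each other group. Alternatives were 2 other pseudocounts, no filter and a stricter one, scaling to a common total or by median ratios, eBayes without trend, array weights, blocks of replicate or library number, the libraries of a contrast alone, and leaving out each library.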

Additional observations from a re-analysis of the deposited data

Results flagged for a closer look

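In 33 of 200 sets of 4 libraries (50 genes in 4 groups), 1 library lay far from the other 3. Its gap to the nearest passed Dixon's 95% critical value for 4 values, a nominal rate of about 1 of 20 independent sets. The genes share the same libraries, so these sets are not independent. The share over all tested genes was not computed, so the count of 33 is not a result about cell cycle genes. Villus epi replicate 2 was the high library in 16 of the 33. For replication genes it had 0.460 FPKM of Mcm3, 6.78 of Mcm5, 4.71 of Cdc6, 34.6 of Pcna and 53.8 of Tyms. For mitosis genes it had 2.25 FPKM of Bub1b, 9.37 of Ube2c, 11.2 of Top2a, 5.15 of Cenpe, 1.79 of Cenpf, 23.2 of Tpx2 and 17.2 of Nusap1. It also had 30.5 FPKM of Ccnd1, 9.49 of Cdk2, 1136 of Cdkn1a and 60.6 of Cdkn1b. The sum of 7 T and intraepithelial lymphocyte markers was 28.9 FPKM in it, 24.6 of them from Ptprc, and 2.60 to 7.04 FPKM in the other 3, while its Cd3e stood at 0.663 FPKM. Their part in these values was not tested.

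Crypt EC replicate 1 was the high library for Mcm3 (22.3 FPKM), Dut (49.2 FPKM), Kif23 (15.7 FPKM) and Ccnd1 (13.2 FPKM), and the low one for Ccnd2 (171 FPKM), Ccnd3 (62.4 FPKM) and Cdkn1a (518 FPKM). Crypt epi replicate 3 was the high library for Gins2 (33.4 FPKM), Top2a (84.1 FPKM), Birc5 (153 FPKM), Kif11 (11.1 FPKM), Kif20a (23.6 FPKM) and Tpx2 (19.8 FPKM), and crypt epi replicate 2 the low one for Cdkn2c (3.90 FPKM). The remaining 3 were villus EC replicate 2 for Mcm6 (15.6 FPKM), villus EC replicate 4 for Top2a (1.88 FPKM) and villus epi replicate 4 for Dut (1.30 FPKM).

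The EC minus epi difference itself differed between villus and crypt, by limma's interaction term, for 32 genes in the higher and 1 in the lower direction. Of all tested genes, 26.9% and 16.0% did. For 6 genes EC was called higher than epi in the villus and lower in the crypt. Their interactions on the log2 scale were 2.13 for Mcm7, 4.11 for Gins2, 1.31 for Pcna, 4.05 for Plk1, 2.61 for Cenpa and 1.79 for Cdkn2c. The share of all tested genes with such opposite calls was not computed. After scaling to a common total, limma did not call the crypt differences of Pcna (0.09, adjusted p = 0.72), Mcm7 (-0.32, adjusted p = 0.41) and Gins2 (-0.70, adjusted p = 0.057).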

How the results depend on the processing

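Of the 43 of 50 genes called between crypt EC and crypt epi, 31 kept call and direction under every alternative run, and 12 lost the call under at least 1: Pcna (17 alternatives), Ccne2 (12), Nusap1 (11), Mcm7 (9), Rrm1 (8), Cdk6 (8), Top2a, Mcm5, Ccnd1, Gins2, Cdc6 and Cenpf. Scaling to a common total turned the log2 difference of Pcna to 0.091, of Dut to 0.41 and of Cdk4 to 0.36, and it moved the median of replication genes to -0.70 and of mitosis genes to -1.34, the genes higher in crypt EC to 4, those lower in villus EC against villus epi to 2, those higher in villus EC than in crypt EC to 1, and the lower interactions to 2. It also lowered the share of calls that were higher to 24.7% between villus EC and crypt EC, against 38.9%, and to 24.9% between villus epi and crypt epi, against 35.6%; median-ratio scaling moved the median of all genes by -0.13 in the crypt and -0.22 in the villus and gave 44.7% and 56.2% of calls higher for EC against epi. Over all tested genes, scaling to a common total gave 1134 higher in villus EC than in crypt EC and 2055 lower interactions, against 1454 and 2258. A pseudocount of 5 gave a mitosis median of -1.39 and 3 genes lower in villus EC against villus epi. Over all tested genes it gave 3013 lower there, against 3046. A pseudocount of 0.1 gave 22 higher interactions, against 32, and 3 lower. Over all tested genes it gave 3467 higher and 2116 lower interactions, against 3792 and 2258. Array weights gave 4 genes higher in the crypt, 17 higher in villus EC against villus epi and 2 lower interactions. Over all tested genes they gave 5177, 6783 and 3549 in the same order, against 3264, 5724 and 2258. They called 9928 genes in the crypt and 7255 between the EC groups. The libraries of a contrast alone gave 4 genes higher in the crypt. Over all tested genes 4798 were then higher there, against 3264, with 9204 genes called there and 6670 between the EC groups.

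Deviations of same-numbered libraries from their group means had correlations of -0.268 to 0.170 over 24 pairs by replicate. By library number they were -0.268 to 0.139 over 10 pairs. Pairs of unlike number were not computed as a reference, so these values cannot tell whether the numbers mark shared mice. A replicate block gave 39 of the 50 genes lower in crypt EC, against 41, and 2 lower interactions, against 1. Over all tested genes it gave 2703 and 2185, against 2824 and 2258. A block of library number gave 32 of the 50 genes lower in crypt EC, 2 lower in villus EC against villus epi and 1 higher in villus EC than in crypt EC. Over all tested genes that block gave 2326, 2189 and 609 in the same order, against 2824, 3046 and 1454. It called 1841 genes between the EC groups.

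Leaving out each library in turn gave 33 to 44 genes lower and 2 to 4 higher in crypt EC than in crypt epi, medians of -1.35 to -1.17 for replication and -1.92 to -1.63 for mitosis, and 5357 to 9020 genes called, against 6088. It gave 4 to 9 lower and 11 to 15 higher in villus EC against villus epi (8238 to 10518 genes called, against 8770), 39 to 41 lower and 2 to 3 higher between the EC groups (2988 to 6565, against 3736), 46 to 47 lower and 2 to 3 higher between the epi groups (7113 to 9458, against 7755), and 31 to 43 higher and 1 to 2 lower interactions (5546 to 8639, against 6050). The upper ends of these gene counts come without villus epi replicate 2.

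The FPKM values come without an estimate of their counting error. A level below 1 FPKM, as most mitosis genes have in the villus, says little about a difference between villus EC and villus epi.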

Other observations

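Among genes of the other lists, E2f2, an activator E2F, was high in villus EC, where most cycle genes were low. It had 39.3, 29.4, 30.5 and 34.1 FPKM in villus EC, against 3.84, 0.0786, 0.772 and 1.20 FPKM in villus epi. In the crypt it had 11.25 to 13.4 FPKM in crypt EC, against 13.1 to 23.9 FPKM in crypt epi. Fam83d, which encodes a spindle protein, had a like order, with 61.8, 57.3, 49.5 and 58.7 FPKM in villus EC, against 0.791, 0.738, 0.515 and 1.59 FPKM in villus epi. In the crypt, Fam83d had 5.14, 17.9, 18.2 and 16.3 FPKM in crypt EC, against 14.5, 16.4, 16.9 and 14.0 FPKM in crypt epi. Both genes were chosen for mention here after their values were seen, so these values are given with no test.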
